A study of Mus musculus with 2 samples.

Results

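The cells described here are collagen-expressing stromal cells of mouse perivascular adipose tissue in which no transcript of Tagln was counted. Tagln encodes transgelin, also called SM22α, an actin-binding protein. They numbered 939 of 27740 cell barcodes in all, 726 of 14636 in the old library and 213 of 13104 in the young library. A barcode was a member when it held at least 5000 unique molecular identifiers (UMIs, each standing for 1 captured transcript) and at most 10% mitochondrial UMIs. It also needed at least 10 UMIs of Col1a1, Col1a2 and Col3a1 together, 0 UMIs of the endothelial genes Pecam1 and Cdh5, the leukocyte gene Ptprc, the mesothelial gene Upk3b and the glial gene Sox10, and 0 UMIs of Tagln. Barcodes that met the same conditions but held 5 or more Tagln UMIs served as the comparison, with 5301 in the old and 8096 in the young library. The measured Tagln count thus chose both classes, so every difference between them is given as a description with no test.

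Both libraries came from wild-type (WT) mice, 1 library from old and 1 from young animals, and both were made from fat dissected off the aorta, digested with collagenase and stripped of red cells. The label of both is primary perivascular stromal cells, and the transcripts were captured with 10x Genomics 3′ version 2 chemistry. The sources used here do not give the ages, the sex or the number of mice behind each library, nor whether the cells were cultured. With 1 library per age no comparison has a replicate, so no p-value exists and each interval covers counting error only.

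Transgelin is an early marker of smooth muscle and of contractile fibroblasts. Its gene is switched on with a set of others (smooth muscle actins, calponin, myosin chains, tropomyosin) by serum response factor, which binds a sequence called the CArG box, together with cofactors of the myocardin family that sense the state of actin in the cell. In fat and in the adventitia, stromal cells with little of this program include fibroblasts, progenitors of fat cells and cells that secrete matrix, lipid-handling and defence proteins.

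Promoter sequences are shown for 1 gene of each side of the pattern below, the contractile gene Myl9, whose level was lower in Tagln-zero barcodes, and the metal-binding gene Mt2, whose level was higher. Each is the forward strand, 5′ to 3′, of the 250 bases before the start of the gene in RefSeq on GRCm38.p6. For Myl9 (chr2:156775214-156775463) the capitals mark a CArG box, whose first base lies 161 bases before the start. For Mt2 (chr8:94172368-94172617) the capitals mark 3 matches to the core of the metal response element, at 223, 128 and 50 bases before the start.
Myl9: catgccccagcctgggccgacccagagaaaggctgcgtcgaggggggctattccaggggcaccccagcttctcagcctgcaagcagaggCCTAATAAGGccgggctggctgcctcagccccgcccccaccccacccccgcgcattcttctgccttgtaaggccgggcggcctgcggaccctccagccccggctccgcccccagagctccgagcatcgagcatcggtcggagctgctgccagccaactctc
Mt2: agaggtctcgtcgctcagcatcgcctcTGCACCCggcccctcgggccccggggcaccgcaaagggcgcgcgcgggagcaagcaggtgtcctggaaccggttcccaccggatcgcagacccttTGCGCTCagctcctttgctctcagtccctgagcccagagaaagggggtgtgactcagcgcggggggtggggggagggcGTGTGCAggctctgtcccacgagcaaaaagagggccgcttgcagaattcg

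The CArG box was searched on both strands as CCWWWWWWGG, with W for A or T. This exact form was present in 482 of 32851 RefSeq promoters of this length, 1.47%. Of the 15 contractile genes listed, 12 had a promoter entry and Myl9 alone held an exact match. Stretches with another base at a W position were not counted, such as CCCTATATGG and CCTTGTTTGG in the Acta2 window. A gene without a match here can thus still hold a CArG-like element, inside or outside the window. Of the contractile list, Actg2, Myh11 and Myocd had no entry, nor did Tagln, which is not on that list. The metal response element core was searched as TGCACNC or TGCGCNC on both strands, patterns that differ in the fourth base and share no stretch with the CArG box as searched. It was present in 7032 promoters, 21.4%, and more than 2 times in 415, 1.26%. Of the 12 genes named below with the highest ratios, 9 had an entry and 4 of these held the core, namely Abca1, Fxyd1, Mt2 and Sfrp2. It was also held by 3 of the 12 contractile promoters, those of Csrp1, Des and Tpm2, and by 2 of 8 among the 12 genes with the lowest ratios, Siglecg and Tpm2. These matches describe letters in a window and say nothing of a protein bound there.

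Tagln-zero barcodes were 7.55% of the 9615 mesenchymal barcodes of the old library (exact Clopper-Pearson 95% interval 7.03 to 8.10) and 2.06% of the 10316 of the young library (1.80 to 2.36). A mesenchymal barcode is one that met every condition other than that on Tagln. A further 3588 old and 2007 young barcodes held 1 to 4 Tagln UMIs, 37.3% and 19.5% of the mesenchymal barcodes, and entered neither class. Barcodes with 5 or more Tagln UMIs made up 55.1% in the old and 78.5% in the young library. The difference in share between the libraries has no replicate behind it.

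**Figure D1:**
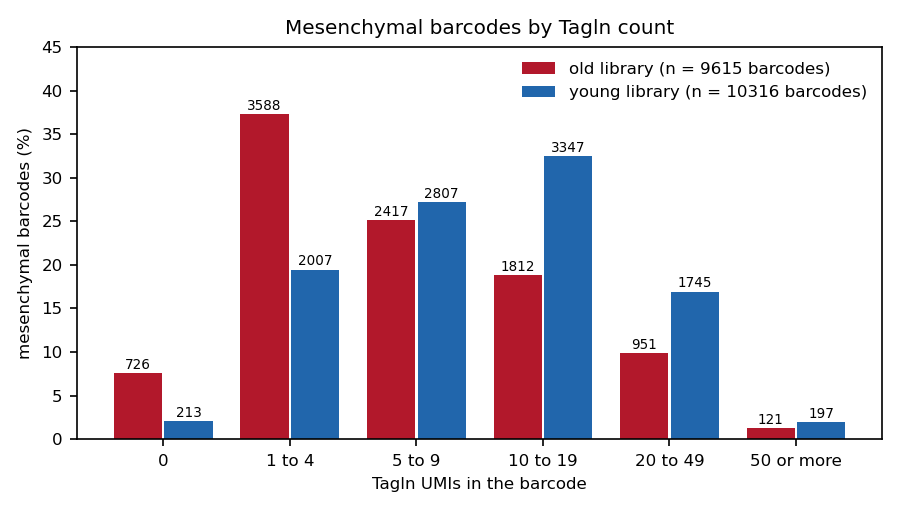
Share of mesenchymal barcodes (y axis, %) by the number of Tagln UMIs in the barcode (x axis), for the old library (red, 9615 barcodes) and the young library (blue, 10316 barcodes), with the number of barcodes above each bar. The bin at 0 holds 726 old and 213 young barcodes, and the old library has the larger share in the bins 0 and 1 to 4.

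Tagln-zero barcodes were shallow. Their median was 7570 UMIs in the old library, against 11710 in barcodes with 5 or more Tagln UMIs, and 7159 in the young library, against 10583. The share was lowest in the deepest barcodes. Among barcodes of 5000 to 7499 UMIs, 15.6% of the old and 5.03% of the young mesenchymal barcodes had no Tagln UMI, and among those of 15000 or more 1.51% and 0.282%. The old share was above the young share in each of the 4 depth bins. Once every barcode was thinned to 5000 UMIs, 15.9% of old and 5.52% of young mesenchymal barcodes held no Tagln UMI. The count of 0 thus moved with depth. Levels below are given as CPM, the UMIs of a gene divided by the UMI total of its class and scaled alike in all classes, which removes the total but not the choice of shallow barcodes.

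The barcodes at the edges of the rule had nearby values. Acta2, the gene of smooth muscle α-actin, stood at 400 CPM in old barcodes with 0 Tagln UMIs and 541 CPM in those with 1 UMI. At 4 Tagln UMIs it was 1060 CPM and at 5 UMIs 1258 CPM. The same 4 levels of Acta2 in young barcodes were 462, 638, 1016 and 1174 CPM. Lpl, the gene of lipoprotein lipase, ran the other way in the old library, with 495 and 423 CPM at 0 and 1 Tagln UMIs and 304 and 282 CPM at 4 and 5. At the collagen limit, 63 old and 16 young Tagln-zero barcodes held 10 to 14 collagen UMIs, just inside, and 46 and 19 others held 5 to 9, just outside.

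Tagln was also uncounted in cells that are not expected to use it. Among old barcodes with 3 or more UMIs of Pecam1 or Cdh5 and fewer than 10 collagen UMIs, which are endothelial by these genes, 43.7% of 783 had no Tagln UMI at a median of 11285 UMIs. Their Tagln level was 162 CPM and their Acta2 level 294 CPM. Among 40 old barcodes with Ptprc the share was 67.5%, at a Tagln level of 136 CPM and an Acta2 level of 391 CPM. The 21 young endothelial barcodes held 171 CPM of Tagln and 175 CPM of Acta2. The Acta2 levels of Tagln-zero barcodes, 400 CPM old and 462 CPM young, therefore lay near the levels in old leukocyte barcodes and above those in endothelial barcodes.

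Most members held transcripts that go with the mesenchymal label. All 12 mesenchymal markers were detected in both libraries, at a summed level of 3261 CPM in Tagln-zero barcodes against 2877 CPM in barcodes with 5 or more Tagln UMIs of the old library, and 2426 against 2338 CPM in the young. At least 5 of these UMIs were held by 725 of the 726 old and 209 of the 213 young Tagln-zero barcodes. This share says little by itself, since the rule had chosen barcodes by collagen and the markers include Col5a1, Col6a1 and Col6a2. Pdgfra, a growth factor receptor of fibroblasts, stood at 227 CPM in Tagln-zero and 152 CPM in Tagln 5 or more barcodes of the old library, and at 123 and 97.2 CPM in the young library. Pdgfrb, its relative on mural cells and fibroblasts, differed little, with 145 against 159 CPM in the old and 143 against 147 CPM in the young library.

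An exception was a sub-cluster of 12 young Tagln-zero barcodes, number 4 of that library, which went against the label. It had 0 UMIs of Pdgfra, Dcn and Lpl, and S100a10, Tmsb4x, Tuba1a, Tagln2 and Arpc1a were among its leading genes. Without these 12 barcodes the counts of genes below became 96 lower and 97 higher, against 85 and 92 with them, and the values that changed in direction are named where they occur. Of all barcode sequences, 14636 in the old and 13104 in the young library, 275 were found in both. That count covers the whole libraries and not sub-cluster 4, and the number expected to coincide by sequence alone was not computed.

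Other marker lists were low, with exceptions. Smooth muscle markers summed to 474 CPM in old Tagln-zero barcodes, against 3091 CPM in Tagln 5 or more barcodes, and to 569 against 2764 CPM in the young library, and the myocardin gene Myocd was at 0 UMIs in Tagln-zero barcodes of both. Adipocyte markers were at 314 against 150 CPM in the old and 223 against 122 CPM in the young library, with Lep and Pck1 at 0 in Tagln-zero barcodes. At least 5 such UMIs were held by 6.75% of old Tagln-zero against 8.77% of old Tagln 5 or more barcodes. In the young library these shares were 9.39% and 7.37%, and all were taken at unlike depths. Schwann markers were at 12.3 against 7.95 CPM and at 59.5 against 7.51 CPM, and 9 young Tagln-zero barcodes held 5 or more such UMIs. Macrophage markers were at 105 against 53.4 CPM in the old library, where 1 barcode gave 44.6% of the Tagln-zero sum, and at 12.96 against 15.6 CPM in the young. Blood endothelial markers were at 69.2 against 69.5 CPM and at 23.6 against 33.5 CPM, mesothelial markers at 35.7 against 19.9 CPM and at 46.5 against 28.0 CPM. The part of these lists in the results below was not tested.

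To compare the classes, UMIs were summed over the barcodes of a class within a library. The ratio is log2 of the Tagln-zero CPM over the CPM of barcodes with 5 or more Tagln UMIs. A gene was measured where its pooled level predicted at least 20 UMIs in the smaller sum, and it was called at 1.5-fold. This limit admits a gene mostly by its level in the larger class, Tagln 5 or more, so a gene high in Tagln-zero barcodes alone can be left unmeasured. Of 6587 genes measured in both libraries, 85 were called lower in Tagln-zero barcodes in both (1.29%, Tagln left out) and 92 higher in both (1.4%). In the old library alone 5.59% of 10089 genes were called higher and 4.49% lower, and in the young library alone 3.44% of 6593 higher and 4.05% lower. The median over all genes was 0.08 in the old and 0.03 in the young library. Across the 6587 genes the ratios of both libraries had a Pearson r of 0.56, given as a description, since genes share libraries and depth and are no replicates.

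**Figure D2:**
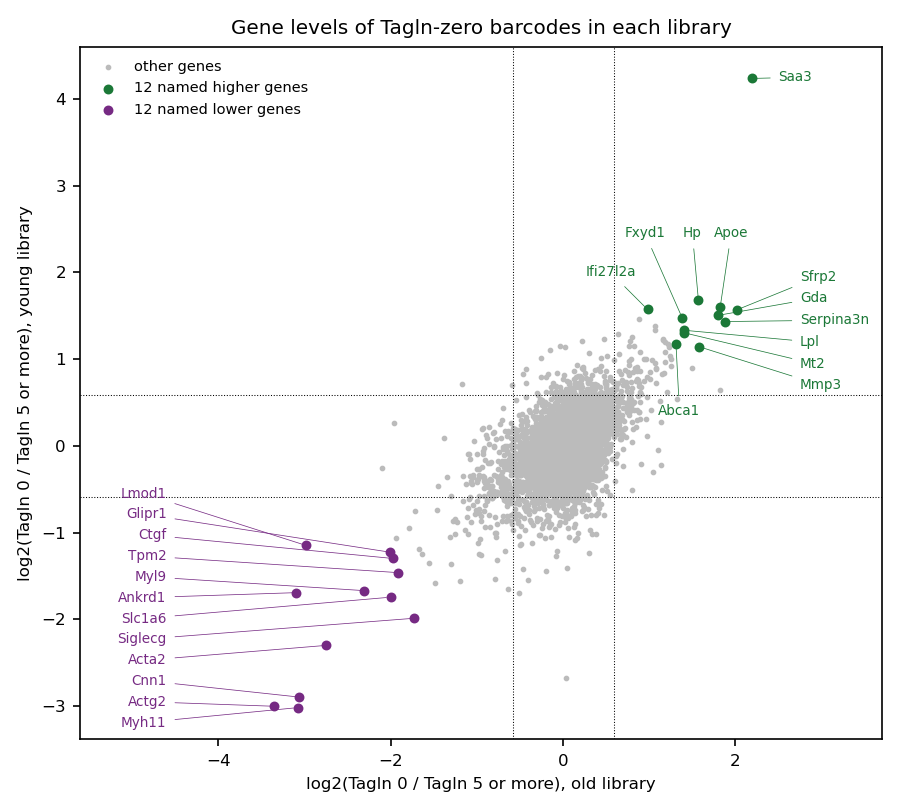
Each point is 1 of 6587 genes measured in both libraries, with log2 of its Tagln-zero CPM over its CPM in Tagln 5 or more barcodes in the old library (x axis) and the young library (y axis). Dotted lines mark 1.5-fold, purple points are the 12 named lower genes and green points the 12 named higher genes, with Saa3 at 2.19 in the old and 4.24 in the young library.

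The contractile genes were lower together. Of the 15 listed, 14 were measured in the old library, with 10 called lower, 0 higher and a median log2 ratio of -1.70. Of the 13 measured in the young library, 12 were called lower and 0 higher, with a median of -1.46. Tagln itself, on chromosome 9 from 45929619 to 45936058 (reverse strand, GRCm38), stood at 1116 CPM in the Tagln 5 or more barcodes of the old and 1333 CPM in those of the young library, and at 0 in Tagln-zero barcodes by the rule. Since transcripts were tagged at the 3′ end, CPM values of different genes are not scaled by length and are compared here within a gene.

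Acta2 had 2398 UMIs in old Tagln-zero barcodes, 400 CPM, against 2690 CPM in Tagln 5 or more barcodes, a log2 ratio of -2.75 (95% interval -2.81 to -2.69). It had 784 UMIs in young Tagln-zero barcodes, 462 CPM, against 2275 CPM, a log2 ratio of -2.30 (-2.40 to -2.20). Actg2, which encodes the γ-actin of visceral and vascular smooth muscle, was the gene with the lowest mean ratio. It stood at 20.2 against 206 CPM in the old library, a log2 ratio of -3.35 (-3.63 to -3.10), and at 17.1 against 137 CPM in the young library, a log2 ratio of -3.00 (-3.58 to -2.48). Actg2 was also present at 17.7 CPM in the old endothelial barcodes described above, close to its level in Tagln-zero barcodes.

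Cnn1, the gene of calponin, which binds actin and restrains the myosin motor, stood at 13.7 against 114 CPM in the old and 28.9 against 215 CPM in the young library (log2 -3.07 and -2.90). Myh11, the smooth muscle myosin heavy chain, was scarce in both classes, with 9 UMIs in old and 3 UMIs in young Tagln-zero barcodes. Its log2 ratio was -3.08 (-4.21 to -2.15) in the old and -3.02 (-5.30 to -1.47) in the young library. Myl9, the regulatory light chain whose promoter is printed above, stood at 58.2 against 288 CPM in the old library and 127 against 405 CPM in the young library (log2 -2.30 and -1.67). All of these were lower in Tagln-zero barcodes of both libraries, and in each case the interval lay below 0.

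The ratios of the other members varied. Tpm2, the β-tropomyosin gene, stood at 249 against 937 CPM in the old and 269 against 740 CPM in the young library (log2 -1.91 and -1.46). Tpm1, the α-tropomyosin gene, had log2 ratios of -0.96 in the old and -0.87 in the young library. Lmod1, which encodes an actin nucleator of smooth muscle, was lower by more in the old library, at 2.501 against 19.8 CPM, than in the young, at 27.7 against 61.3 CPM (log2 -2.98 and -1.15). Csrp1, a LIM-domain protein gene of smooth muscle, had log2 ratios of -1.26 and -1.02, and Des, the gene of the muscle filament desmin, -1.49 and -1.58 on 14 and 13 UMIs. Mylk, the kinase gene of the myosin light chain, was past 1.5-fold only in the young library, with log2 ratios of -0.16 old and -0.94 young. Cald1 (caldesmon) and Smtn (smoothelin) had log2 ratios of -0.21 and -0.24 in the old library and -0.50 and -0.63 in the young, and the young Smtn ratio was -0.56 without sub-cluster 4.

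Acta2, Actg2, Cnn1, Myl9 and Tpm2 followed the Tagln count by degrees in both libraries, though not every contractile gene did. In old barcodes the level of Acta2 was 400 CPM at 0 Tagln UMIs, 773 CPM at 1 to 4, 1495 CPM at 5 to 9, 2426 CPM at 10 to 19, 4026 CPM at 20 to 49 and 9041 CPM at 50 or more. In young barcodes it was 462, 842, 1343, 1961, 3171 and 6065 CPM in the same bins. Old Smtn was nearly flat, at 29.7 CPM at 0 Tagln UMIs and between 34.6 and 36.5 CPM in the bins above. Old Mylk stood at 150 CPM at 0 Tagln UMIs and 148 CPM at 10 to 19, and reached 227 CPM at 20 to 49. Depth also climbed with the bins, with a median of 7570 UMIs at 0 Tagln UMIs and 20992 UMIs at 50 or more in the old library, and 7159 and 18680 UMIs in the young. The part of depth in this gradient was not tested, and Tagln-zero barcodes were its low end with no gap before the bin of 1 to 4.

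**Figure D3:**
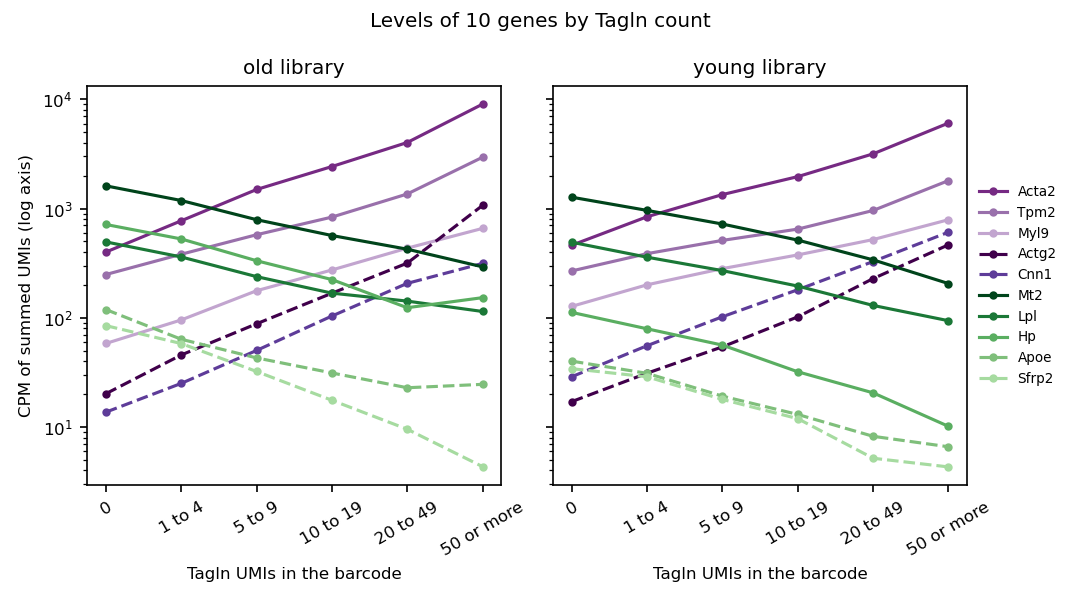
Level of 10 genes (y axis, CPM of summed UMIs, log axis) by the number of Tagln UMIs in the barcode (x axis), in the old (left) and young (right) library. Contractile genes (purple) are lowest at 0 Tagln UMIs, with Acta2 at 400 CPM old and 462 CPM young, and Mt2, Lpl, Hp, Apoe and Sfrp2 (green) are highest there.

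The difference was also present after thinning, with the classes still drawn on the full Tagln counts, so the choice of shallow barcodes remained. After each barcode was thinned to 5000 UMIs, the median sum of Acta2, Actg2, Cnn1, Myl9 and Tpm2 was 3 UMIs in old Tagln-zero barcodes, against 16 UMIs in Tagln 5 or more barcodes. The same median was 4 against 15 UMIs in the young library. At least 1 Acta2 UMI was held by 74.5% of old Tagln-zero barcodes against 98.6% of Tagln 5 or more barcodes, and by 77.5% against 98.2% in the young library. Before thinning, 610 of 726 old and 184 of 213 young Tagln-zero barcodes held Acta2. Among the 40 old barcodes with Ptprc, at a median of 7430.5 UMIs before thinning, 65.0% held Acta2 after thinning, although such cells should lack the gene. No such share was computed for the young library. Among barcodes of 5000 to 10000 UMIs only, the log2 ratio of Acta2 was -2.54 in the old and -2.19 in the young library, and that of Cnn1 -2.83 and -2.70.

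Genes of the actin skeleton outside the smooth muscle set were lower as well. Of 16 actin regulators and cofactors of serum response factor, 9 were called lower and 0 higher in the old library (median -0.71), and 8 lower and 1 higher in the young (median -0.57). Actb, the cytoplasmic β-actin gene, stood at 1655 against 3417 CPM in the old and 3569 against 5736 CPM in the young library (log2 -1.05 and -0.68). Its partner Actg1 had log2 ratios of -1.08 and -0.59. Actn1, the gene of the crosslinker α-actinin, had -1.10 and -1.01, and Flna, the filamin A gene, -0.91 and -0.74. The adhesion gene Vcl (vinculin) had -0.90 and -0.68, and Zyx (zyxin) -0.72 and -0.55, the young value short of 1.5-fold.

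The factor genes themselves gave a mixed picture. Srf, the serum response factor gene, had log2 ratios of -0.08 in the old library, at 12.3 against 13.1 CPM, and -1.27 in the young, at 11.8 against 28.4 CPM on 20 Tagln-zero UMIs. Of its actin-sensing cofactors, Mkl1 had ratios of -0.19 and -0.50 and Mkl2 0.28 and 0.63, the Mkl2 value in the young library being the 1 called higher. Of the paralogues of transgelin and calponin, Tagln2 had ratios of -0.03 in the old and -0.45 in the young library, at 560 against 573 CPM and 251 against 343 CPM. Cnn2, the calponin gene of non-muscle cells, was called lower in both, with -1.46 and -0.74, and Cnn3 in neither, with -0.32 and -0.22.

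Targets of stretch and of the YAP and TAZ coactivators were lower in part. Of 10 listed, 5 were called lower in the old and 3 in the young library, and 0 higher in either (medians -0.67 and -0.54). Ankrd1, a nuclear protein gene induced by tension, stood at 12.5 against 107 CPM in the old and 86.6 against 280 CPM in the young library (log2 -3.10 and -1.69). Ctgf, a matricellular growth factor gene, had log2 ratios of -1.97 and -1.30, at 16.8 against 66.2 CPM and 96.0 against 236 CPM. Thbs1, the thrombospondin 1 gene, had -1.30 in the old and -0.58 in the young library, just short of 1.5-fold. In barcodes of 5000 to 10000 UMIs the Ankrd1 ratios were smaller in size, -1.96 old and -0.99 young.

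The TGF-β pathway showed no common direction. Of 15 listed genes, 3 of 15 measured were called higher and 2 lower in old barcodes (median 0.23), and 1 of 14 higher and 3 lower in the young (median -0.09). Tgfbr3, the co-receptor betaglycan, was the member called higher in both, with log2 ratios of 0.72 and 0.74. The ligand gene Tgfb1 had 0.26 and 0.04 and Tgfb3 -0.24 and -0.95. Of 9 integrin genes 7 and 5 were measured, 0 were called in the old library and 1 in the young, Itga5, a chain of the fibronectin receptor, at -0.18 old and -0.85 young.

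The last 3 of the 12 named lower genes belonged to no list. Slc1a6, a glutamate transporter gene, had log2 ratios of -2.00 in the old and -1.74 in the young library. Siglecg, a sialic acid-binding lectin gene best known from B cells, had -1.73 and -1.99. Glipr1, a secreted cysteine-rich protein gene, had -2.00 and -1.23. All had few UMIs in Tagln-zero barcodes, between 33 and 46 in the old and between 13 and 17 in the young library.

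**Figure D4:**
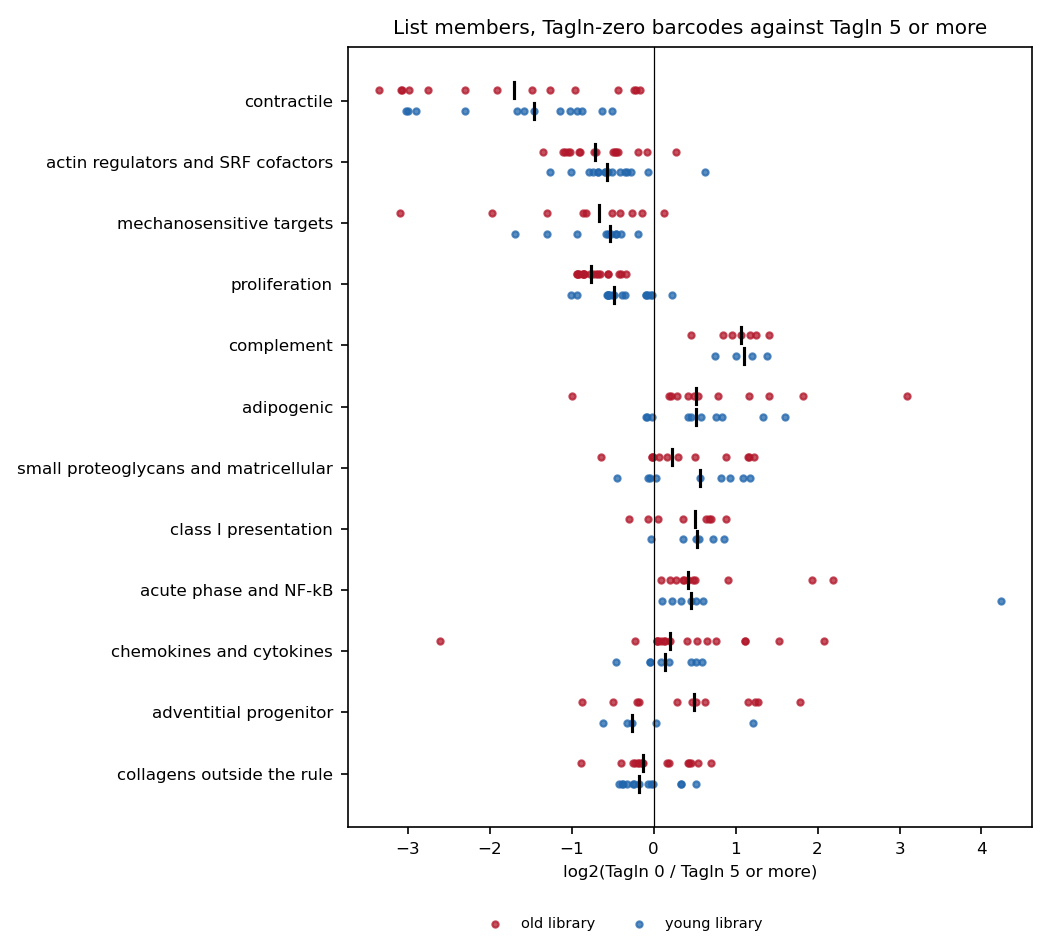
Each point is a measured member of a gene list, with log2 of its Tagln-zero CPM over its CPM in Tagln 5 or more barcodes on the x axis, for the old (red) and young (blue) library, and the black bar is the list's median. Contractile genes have medians of -1.70 old and -1.46 young, and complement genes 1.06 old and 1.10 young.

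Genes of lipid handling were among those higher in Tagln-zero barcodes. Of the adipogenic list, 5 of 12 measured genes were called higher and 1 lower in old barcodes (median 0.52), and 4 of 10 higher and 0 lower in the young (median 0.52). Lpl, which encodes the enzyme that frees fatty acids from circulating lipoproteins, stood at 495 against 187 CPM in the old library, a log2 ratio of 1.40 (1.34 to 1.46). It stood at 491 against 195 CPM in the young library, a log2 ratio of 1.33 (1.23 to 1.43). Apoe, the apolipoprotein E gene, had 119 against 33.6 CPM and 40.1 against 13.2 CPM (log2 1.82 and 1.60). Fabp4, a fatty acid carrier of adipocytes, had log2 ratios of 1.17 and 0.84, and Cebpa, an adipogenic transcription factor gene, 0.78 and 0.46. Fabp4 was uneven in the old library, at 883 CPM in the 188 barcodes of sub-cluster 4, described below, and 86.0 CPM in the other Tagln-zero barcodes. The old bins of 5 or more Tagln UMIs held 109 to 128 CPM. After thinning, 35.3% of old Tagln-zero barcodes held Fabp4 against 32.3% of Tagln 5 or more barcodes, and 50.2% against 36.3% in the young library.

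Several members rested on little. Cd36, a fatty acid transporter gene, had a log2 ratio of 3.09 in the old library, from 111 UMIs in 31 barcodes, and was not measured in the young library, with 4 UMIs. After thinning, 3.44% of old Tagln-zero barcodes held Cd36, against 1.04% of Tagln 5 or more barcodes and 87.5% of barcodes with Ptprc. Pparg, the master regulator of adipogenesis, stood at 14.5 against 9.95 CPM in the old library (log2 0.54), short of 1.5-fold. Fabp5, a fatty acid carrier with a broader range of cells, was the member called lower, at -0.995 in the old library and -0.09 in the young. Abca1, the cholesterol exporter, was called higher in both, with log2 ratios of 1.31 and 1.18. Adipocyte markers stood at 314 against 150 CPM in the old and 223 against 122 CPM in the young library, and their part in these values was not tested.

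Lpl was uneven among Tagln-zero barcodes. It was counted in 583 of 726 old and 125 of 213 young Tagln-zero barcodes. In the young library 57 barcodes, sub-cluster 3 described below, held 1407 CPM, and the other Tagln-zero barcodes together 196 CPM, close to the 195 CPM of Tagln 5 or more barcodes. In the old library 188 barcodes, sub-cluster 4, held 1098 CPM, and the others 324 CPM, against 187 CPM in Tagln 5 or more barcodes. After thinning, 67.9% of old Tagln-zero barcodes held Lpl, against 50.2% of Tagln 5 or more barcodes and 8 of the 40 barcodes with Ptprc, and in the young library 52.1% against 44.4%. Though few of these 40 barcodes held Lpl, their summed level before thinning was 559 CPM, above the 495 CPM of old Tagln-zero barcodes. Among barcodes of 5000 to 10000 UMIs only, its log2 ratio was 1.00 in the old and 0.88 in the young library, smaller than over all depths. That window narrows depth without matching it between the classes.

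Among genes called higher in both libraries, an acute phase gene had the largest mean ratio. Saa3, a serum amyloid A gene, stood at 3139 against 689 CPM in the old library, a log2 ratio of 2.19 (2.16 to 2.21). In the young library it stood at 442 against 23.4 CPM, a log2 ratio of 4.24 (4.12 to 4.36), but 1 barcode held 46.3% of the young Saa3 UMIs and the ratio was 3.35 without it. In young sub-cluster 2, described below, 18.0% of 61 barcodes held Saa3, at 1363 CPM over the sub-cluster, and the other Tagln-zero barcodes together stood at 30.7 CPM, near the 23.4 CPM of Tagln 5 or more barcodes, so few barcodes carried the young value. Saa3 was counted in 676 of 726 old and in 41 of 213 young Tagln-zero barcodes. After thinning it was held by 86.9% of old Tagln-zero barcodes, against 71.5% of Tagln 5 or more barcodes and 92.5% of old barcodes with Ptprc. The share in old barcodes was near its ceiling in each of these sets, and leukocytes can use this gene themselves, so no background level is read from them. In young barcodes the thinned share was 15.5% against 7.88%.

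Hp, the gene of the haemoglobin-binding protein haptoglobin, stood at 715 against 241 CPM in the old and 112 against 34.96 CPM in the young library (log2 1.57 and 1.68). Lcn2, the gene of lipocalin 2, which withholds iron from bacteria, had a log2 ratio of 1.93 in the old library, at 287 against 75.5 CPM, and was not measured in the young. Sod2, the mitochondrial superoxide dismutase, had 0.91 and 0.60. Of the 11 genes of the acute phase and NF-κB list, 3 of 11 measured were called higher in the old library and 2 of 7 in the young, with 0 lower in either (medians 0.42 and 0.45). Its inhibitors Nfkbia, at 0.20 and 0.11, and Tnfaip3, at 0.27 in the old library, were not called. Serpina3n, a secreted protease inhibitor gene, had log2 ratios of 1.88 and 1.43, and Mmp3, the stromelysin 1 gene, 1.57 and 1.15, the young Mmp3 ratio being 0.84 without its richest barcode. Genes of near-identical families such as Saa3, Serpina3n and Ly6a can share reads, so their values are uncertain to that extent.

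Complement genes were higher nearly throughout. Of 9 listed, 6 of the 7 measured in the old library were called higher (median 1.06), none lower, and all 4 measured in the young library (median 1.10). C3, the central component, stood at 171 against 75.4 CPM in the old and 33.6 against 14.6 CPM in the young library (log2 1.18 and 1.20). Serping1, the inhibitor of the first component, stood at 407 against 171 CPM and 124 against 61.8 CPM (log2 1.25 and 1.01). C1s1, a protease of the first component, had log2 ratios of 1.06 and 1.39. In the depth window of 5000 to 10000 UMIs the medians were 0.73 old and 0.77 young. Class I antigen presentation had 4 of 8 measured genes higher in the old library and 2 of 6 in the young, with 0 lower and medians of 0.50 and 0.53. H2-K1, a class I heavy chain gene, had ratios of 0.88 and 0.72.

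Chemokines were less uniform. Of 18 listed chemokines and cytokines, 6 of 17 measured were called higher and 1 lower in old barcodes (median 0.21), and 1 of 8 higher and 0 lower in the young (median 0.14). Il33, an alarmin of stromal nuclei, stood at 119 against 28.3 CPM in the old library (log2 2.07) and was not measured in the young, where its pooled level was under the limit, at 11.8 against 4.64 CPM on 20 Tagln-zero UMIs. Cxcl12, which holds blood progenitors in their niche, had log2 ratios of 1.12 and 0.52, and Cxcl5, a neutrophil chemokine, 0.65 and 0.59. Ccl20, which attracts cells with the receptor CCR6, was the member called lower in the old library, at 2.001 against 12.2 CPM (log2 -2.61). Ccl2 and Ccl7, which attract monocytes, had ratios of 0.09 and 0.05 in the old library and 0.45 and 0.19 in the young.

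Metal binding and Wnt modulation were represented among the 12 named higher genes. Mt2, a metallothionein gene that is known to respond to zinc, stood at 1614 against 611 CPM in the old library, a log2 ratio of 1.40 (1.37 to 1.43), and at 1270 against 514 CPM in the young library, a log2 ratio of 1.31 (1.24 to 1.37). Its promoter is the one printed with 3 metal response cores. Sfrp2, which encodes a secreted modulator of Wnt signals, stood at 84.7 against 20.9 CPM and 34.2 against 11.5 CPM (log2 2.02 and 1.57). After thinning, Sfrp2 was held by 26.6% of old Tagln-zero barcodes against 9.05% of Tagln 5 or more barcodes and 2 of the 40 barcodes with Ptprc, and by 12.2% against 5.22% in the young library. Gda, the gene of guanine deaminase, had log2 ratios of 1.80 and 1.51, Fxyd1, a regulator of the sodium pump, 1.38 and 1.48, and the interferon-induced gene Ifi27l2a 0.98 and 1.57.

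Markers of adventitial progenitors were higher in part. Of 17 listed, 12 were measured in the old library, with 5 called higher, 1 lower and a median of 0.50. Only 5 were measured in the young library, with 1 higher, 1 lower and a median of -0.26. Pi16, a marker of such progenitors, stood at 114 against 33.0 CPM in the old library (log2 1.78, 1.66 to 1.91), in 265 of 726 Tagln-zero barcodes, and had 2 UMIs in young Tagln-zero barcodes. Ly6a, the gene of the stem cell antigen Sca-1, stood at 464 against 208 CPM in the old and 217 against 93.5 CPM in the young library (log2 1.16 and 1.22). Anxa3, an annexin gene, was the member called lower in both, at -0.88 and -0.62.

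Matrix genes were largely level. Of 16 collagen genes outside the rule, 1 was called higher and 1 lower in old barcodes (median -0.13), and 0 of 13 measured in the young (median -0.18). Col14a1, a fibril-associated collagen, was the one higher in old Tagln-zero barcodes, at 0.70, with -0.23 in the young, and Col8a1, a short-chain collagen of vessels, the one lower, at -0.89 and -0.42. Among small proteoglycans and matricellular genes, 4 of 12 measured were called higher and 1 lower in old barcodes (median 0.23), and 4 of 9 higher and 0 lower in the young (median 0.56, or 0.03 without sub-cluster 4). Dcn, the decorin gene, stood at 399 against 171 CPM in the old and 193 against 85.7 CPM in the young library (log2 1.22 and 1.17). Ogn, the osteoglycin gene, had log2 ratios of 0.89 and 1.08, and Spp1, the osteopontin gene, 1.15 and 0.83. Sparc, a collagen-binding glycoprotein gene, had -0.02 and 0.03.

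Elastic fibre genes had few calls, 4 of 17 higher and 1 lower in the old library and 1 of 16 higher and 2 lower in the young, with medians of -0.01 and -0.03. Fbln1, the fibulin 1 gene, was called higher in both, at 0.82 and 1.16. Of the proteases and inhibitors, 3 of 13 were called higher and 0 lower in the old library, and 3 of 11 higher and 1 lower in the young. Mmp2, the gelatinase A gene, had 0.89 and 0.70, and Timp3, a matrix-bound inhibitor gene, -0.49 and -1.14. Igfbp4, which binds insulin-like growth factors, stood at 1117 against 396 CPM and 358 against 192 CPM (log2 1.49 and 0.90), and Igfbp2 was lower in both, at -1.30 and -1.36.

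Cycling genes were lower in the old library by more than in the young. Of 18 proliferation genes, 13 were called lower and 0 higher in old Tagln-zero barcodes (median -0.76), and 2 of 17 lower and 0 higher in young ones (median -0.49). Birc5, a survivin gene of dividing cells, had log2 ratios of -0.93 old and -0.35 young, and Ube2c, a ubiquitin-conjugating enzyme gene of mitosis, -0.78 and -1.01. At 5000 UMIs per barcode, 19.6% of old Tagln-zero barcodes held 3 or more UMIs of the list, against 37.5% of Tagln 5 or more barcodes, and 33.3% against 37.7% in the young library. These values moved with depth. In barcodes of 5000 to 10000 UMIs the median was -0.31 in the old library and 0.35 in the young. Of the arrest genes, 1 of 7 measured was called lower in the old library and 0 of 6 in the young, with 0 higher in either. It was Ccng1, a cyclin G gene induced by p53, at -0.68 old and -0.24 young, while the inhibitor genes Cdkn1a, at -0.04 and -0.18, and Cdkn2a, at -0.14 and 0.07, were not called.

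Few genes were called among the immediate early genes (0 higher and 1 lower of 13 in the old library, 1 and 1 of 12 in the young), the integrated stress genes (1 and 2 of 8, 1 and 0 of 5), hypoxia and glycolysis (0 and 0 of 9, 0 and 1 of 8) and the Hox genes (0 and 0 of 15, 0 and 1 of 6). Their medians lay between -0.19 and 0.27. Ddit4, a gene induced by stress and glucocorticoids, was the integrated stress member called higher in both, at 0.73 and 0.70.

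The Tagln-zero barcodes were not uniform. Clustered on their own, they formed 5 sub-clusters in each library, which keep numbers instead of names, and whose leading genes describe the clustering. In the old library sub-cluster 1 was the largest, with 263 barcodes, followed by sub-cluster 4 with 188, sub-cluster 3 with 118, sub-cluster 0 with 93 and sub-cluster 2 with 64. Sub-cluster 0 was led by Nusap1, Cenpf, Top2a, Mki67, Ccna2 and Cdca8, all genes of dividing cells. Sub-cluster 4 was led by Fabp4, Wfdc21, Cd36, Rgcc, Steap4 and G0s2, several of which serve lipid storage, and sub-cluster 2 by Serpina3n, Mmp3, Flrt2, Clu, Fndc1 and Saa3. Sub-cluster 3 was led by Tppp3, Lgals3, Gm13889, Ddit3, Tcim and Cxcl3. Sub-cluster 1 was led by Jchain, Lyz2, Igfbp5, Pf4, Ly6d and Il11, of which Jchain came from 1 barcode and 1 barcode gave 81.0% of the Lyz2 UMIs. The richest barcode also gave 70.5% of the Pf4 and 57.7% of the Ly6d UMIs there. In sub-cluster 3 it gave 65.7% of the Cxcl3 UMIs, and in sub-cluster 4 42.9% of the G0s2 UMIs.

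In the young library sub-clusters 0 to 4 held 38, 45, 61, 57 and 12 barcodes. Sub-cluster 0 was led by Cks2, Top2a, Cenpa, Hmgb2, Cdca3 and Birc5, genes of dividing cells, and sub-cluster 1 by Ogn, Mgp, Myh10, Ltbp1, Prrx2 and Hspb6. Sub-cluster 2 was led by Saa3, Flrt2, Clu, Ankrd1, Ccl7 and Tmem45a, and sub-cluster 3 by Lpl, Scd1, Slfn5, Mmp2, Gpx3 and Ly6a. The richest barcode gave 48.6% of the Saa3 and 61.9% of the Clu UMIs in sub-cluster 2, and 42% of the Scd1 UMIs in sub-cluster 3. Lpl was uneven in both libraries, at 1098 CPM in old sub-cluster 4 against 222 to 427 CPM in the other old sub-clusters, and at 1407 CPM in young sub-cluster 3 against 0 to 300 CPM in the others. Saa3 stood at 7097 CPM in old sub-cluster 4 and 7287 CPM in old sub-cluster 2, and at 1363 CPM in young sub-cluster 2. Acta2 stood between 380 and 423 CPM across the old sub-clusters and between 334 and 629 CPM across young sub-clusters 0 to 3, with 107 CPM in young sub-cluster 4.

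Between the libraries, the Tagln-zero barcodes of old animals held more inflammatory transcripts. With log2 of the old over the young CPM, 1507 of 7156 measured genes were called higher in old (21.1%) and 493 lower (6.89%), with a median over all genes of 0.16. The limit for measured genes admits a gene mostly by its level in the larger sum, here the old one (5997021 against 1697276 UMIs). A gene high in young Tagln-zero barcodes alone can thus be left unmeasured, so the split of higher and lower genes is not an even-handed count. The same holds for the list counts below. Scaling by median-of-ratios set that median to 0, with 1063 higher and 816 lower, so ratios near 0.16 carry no direction. In barcodes with 5 or more Tagln UMIs, 16.6% of 13453 genes were called higher in old and 10.4% lower, with a median of 0.11.

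Cxcl1, a neutrophil chemokine, had the largest ratio. It stood at 3915 CPM in old and 22.4 CPM in young Tagln-zero barcodes, 175-fold higher (log2 7.45, 6.99 to 7.95), and was counted in 724 of 726 old and 22 of 213 young barcodes. After thinning it was held by 98.2% of old Tagln-zero barcodes and by 36 of the 40 old barcodes with Ptprc, so its share does not separate these cells. In barcodes with 5 or more Tagln UMIs its log2 ratio was 6.99. Cxcl5 stood at 3200 against 31.8 CPM (log2 6.65), with 6.59 in Tagln 5 or more barcodes. Csf3, the gene of the granulocyte growth factor, had 539 UMIs in old and 0 in young Tagln-zero barcodes. With the young sum set to a floor of 3 UMIs its level was 50.8-fold higher, a size that depends on that floor.

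Other genes named as higher in old Tagln-zero barcodes had 9 or fewer young UMIs, and 4 of them 3 or fewer, with wide intervals. Il11, a cytokine of fibroblasts, had 1103 old and 3 young UMIs, a log2 ratio of 6.70 (5.15 to 8.98), against 5.01 in Tagln 5 or more barcodes. Pi16 had 681 and 2 UMIs, a log2 ratio of 6.59 (4.73 to 9.64), against 5.56. Star, which carries cholesterol into mitochondria, had 169 and 1 UMIs, a log2 ratio of 5.58 (3.08 to 10.89), and Cfd, the adipsin gene, 166 and 1 UMIs, 5.55 (3.06 to 10.87). Lcn2 had 1724 and 9 UMIs (log2 5.76), against 6.04 in Tagln 5 or more barcodes. Whether any ratio differed between the classes was not tested, and all share the same pair of libraries.

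The genes with the smallest old over young ratios in Tagln-zero barcodes came from several families. Eln, the elastin gene, stood at 4.34 CPM in old and 57.7 CPM in young Tagln-zero barcodes (log2 -3.74, -4.42 to -3.10), against -1.51 in Tagln 5 or more barcodes. Ptn, the pleiotrophin gene, had log2 ratios of -3.60 and -3.95 in Tagln-zero and Tagln 5 or more barcodes, and Col11a1, a minor fibrillar collagen gene, -3.48 and -3.67. Lbh, a transcriptional cofactor gene, had -3.31 and -2.49, Gyg, the glycogenin gene, -3.12 and -1.99, Aldh1a1, a retinaldehyde dehydrogenase gene, -2.92 and -2.24, and Nrn1, a neuritin gene, -2.88 and -1.62. Ankrd1 had -2.79 and -1.38.

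By list, the medians of old over young were near each other in both classes for some lists and apart for others, and no difference was tested. Of 15 measured chemokines and cytokines, 14 were called higher in old Tagln-zero barcodes and 0 lower (median 4.45), and in Tagln 5 or more barcodes 17 of 18 (median 4.44). All 11 acute phase and NF-κB genes were called higher in both classes, with medians of 1.86 and 1.95. Complement genes had 6 of 7 higher in Tagln-zero barcodes (median 1.71) and 7 of 9 in Tagln 5 or more barcodes (median 1.85). Stretch targets were lower in old in both classes, 7 of 9 with a median of -1.01 and 8 of 10 with -0.92. Contractile genes had 2 of 10 higher and 4 lower in old Tagln-zero barcodes (median -0.16), and 2 of 14 higher and 5 lower in Tagln 5 or more barcodes (median -0.10). Adventitial progenitor genes had 6 of 10 higher and 0 lower in Tagln-zero barcodes (median 1.28), and 7 of 15 higher and 3 lower in Tagln 5 or more barcodes (median 0.56). Medians were 0.11 in Tagln-zero and 0.53 in Tagln 5 or more barcodes for matrix proteases and inhibitors, and 0.20 and 0.60 for small proteoglycans and matricellular genes.

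**Figure D5:**
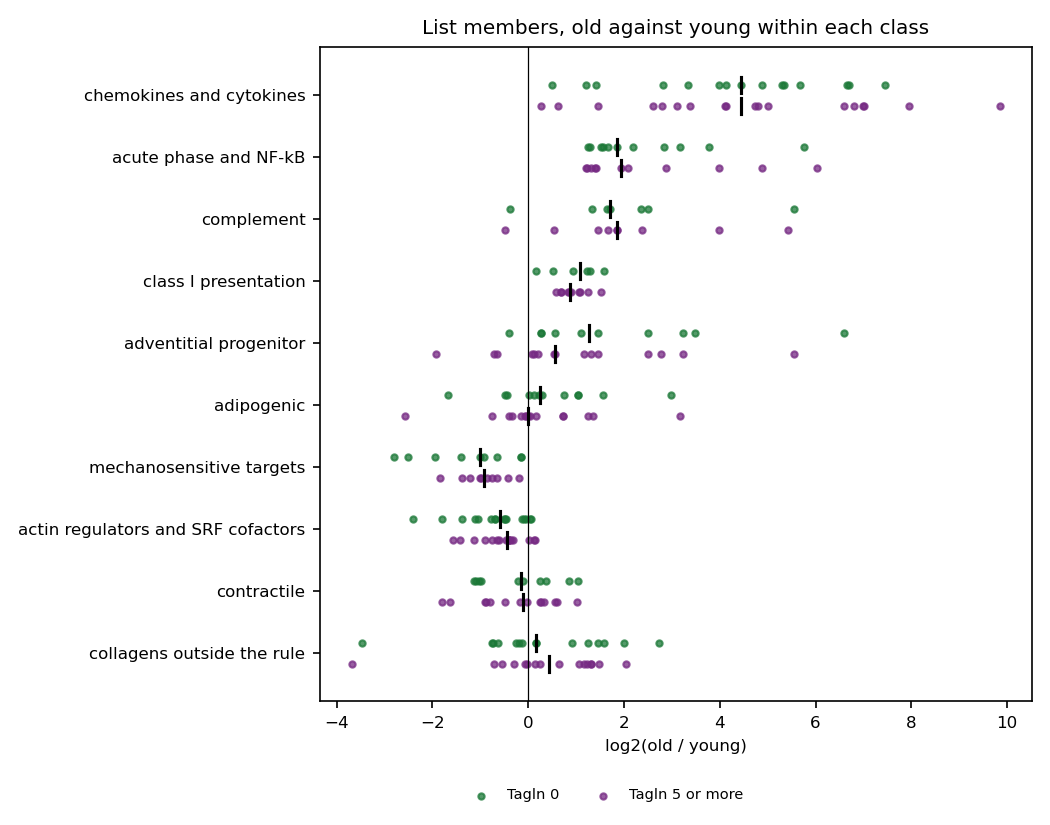
Each point is a measured member of a gene list, with log2 of its old over its young CPM on the x axis, in Tagln-zero barcodes (green) and in Tagln 5 or more barcodes (purple), and the black bar is the median. Chemokines and cytokines have medians of 4.45 and 4.44.

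Some genes had unlike Tagln ratios in the libraries, though only 2 of 6587 (0.0304%), Nes and Hmox1, were past 1.5-fold in opposite directions. Crispld2, a secreted protein gene, had a log2 ratio of Tagln-zero over Tagln 5 or more of 0.03 in the old and -2.68 (-4.55 to -1.32) in the young library, the young value on 4 Tagln-zero UMIs. Inhba, the activin A subunit gene, had 0.05 and -1.40, and Ereg, the epiregulin gene, 0.38 and -1.01. Tgm2, a crosslinking transglutaminase gene, had 0.30 and -1.23, Fosl1, a gene of the AP-1 factor family, 0.34 and -1.02, and Slc1a3, a glutamate transporter gene, 1.13 and -0.22. With classes drawn after thinning, the young Fosl1 ratio was 0.068.

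In the other direction Eln had -1.96 in the old and 0.27 in the young library, the young value being -0.17 without its richest barcode. Hmga2, a chromatin protein gene of growing cells, had -1.38 and 0.10, and Ptchd4 -2.10 and -0.26 on 6 old and 18 young Tagln-zero UMIs. Nes, the gene of the filament protein nestin, had -1.17 and 0.71, and the young value was -1.50 without the 12 barcodes of sub-cluster 4. Saa3 and Lmod1, with larger ratios in 1 library as given above, belong to the same group. None of these differences was tested.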

How the data were processed

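Single-cell RNA libraries of stromal cells from mouse perivascular fat, 1 from old and 1 from young WT mice, were analysed from the deposited UMI counts, raw whole numbers per gene and barcode written by the authors with Cell Ranger 3.0.1, per the file headers. The genome build was mm10, per the submitters' processing notes. The sources used here do not give the barcode filter, the annotation or the strand setting, so antisense and overlapping genes cannot be told apart. The old library held 147166475 UMIs (median 9108 per barcode) and the young 130398999 (9044.5).

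Members and gene lists were chosen with earlier results of these data known. UMIs were summed per library and class, scaled to CPM and compared as log2 ratios with exact conditional Poisson 95% intervals (numpy 2.4.6, scipy 1.17.1, pandas 2.3.3), a calculation also tested on simulated data. No test was made, since each age has 1 library. Sums of 0 were set to a floor of 3 UMIs. Shares with a UMI used barcodes thinned to 5000 UMIs. Of 402 list entries, 3 with a repeated symbol were left out. Named genes were the 12 largest and 12 smallest mean ratios called in both libraries, the 8 largest and smallest old over young ratios, the 6 largest and smallest differences between libraries, the contractile list, up to 5 members of each other list by size of ratio, and the 6 leading genes of each sub-cluster. Further list members (Zyx, Mkl1, Nfkbia, Sparc and Ccl2 among them) and Hmox1 lie outside that rule and were chosen after their values were seen. Mitochondrial, ribosomal, haemoglobin, immunoglobulin and Y-linked genes, Xist, Tsix, Tagln and the genes of the rule were not ranked.

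Sub-clusters came from scanpy 1.11.5 (2000 variable genes, 20 components, 15 neighbours, Leiden resolution 0.5, igraph 0.11.9), per library. Scrublet marked 2 old and 0 young barcodes, so its threshold had not worked, and doublets were kept. Removing the highest scores, 11.7% of old and 10.5% of young barcodes, was an alternative. Other alternatives were depth, collagen and marker limits, classes after thinning, cycling barcodes removed, a higher Tagln comparison, scalings and call limits. A few named items are not reported here.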

Additional observations from a re-analysis of the deposited data

Results flagged for a closer look

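Over the 6587 genes measured in both libraries, 2 were called in opposite directions, 0.0304%. Nes, the nestin gene, had a log2 ratio of Tagln-zero over Tagln 5 or more barcodes of -1.17 in the old library, at 7.67 against 17.3 CPM, and 0.71 in the young library, at 23.0 against 14.03 CPM. The young value rested on the 12 barcodes of sub-cluster 4, without which it was -1.50. Hmox1, the haem oxygenase 1 gene, had -0.60 in the old library, at 93.2 against 141 CPM, and 0.70 in the young library, at 114 against 70.1 CPM. Hmox1 fell outside the rule for named genes and was chosen after its values were seen. The difference between the libraries was not tested for either gene.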

How the results depend on the processing

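The share of Tagln-zero barcodes moved with most limits and was higher in the old library under each. It was 4.59% old and 1.12% young from 8000 UMIs, 6.26% and 1.68% with 30 collagen UMIs, 11.9% and 3.34% in barcodes of 5000 to 10000 UMIs, 10.4% and 2.56% without cycling barcodes, 15.9% and 5.52% after thinning, and 9.18% in the old library with at most 2 UMIs of other cell types' markers. Of the 85 genes lower and 92 higher in both libraries, counts became 50 and 40 at 5000 to 10000 UMIs, where 42 of the 63 lower and 37 of the 89 higher genes still measured stayed called. They were 54 and 60 with the marker limit, 147 and 186 against barcodes of 20 or more Tagln UMIs, 176 and 227 with 5 expected UMIs, and 22 and 21 at 2-fold. The higher genes were 38 from 8000 UMIs and 56 without cycling barcodes. Genes higher in old numbered 2440 with 5 expected UMIs and 628 at 2-fold, and genes lower in old 1079 and 164, or 816 with median-of-ratios scaling. Fosl1 in the young library reached 0.068 after thinning and Nes -1.50 without sub-cluster 4, an alternative chosen after seeing the data. The proliferation median of the old library became 0.25 without cycling barcodes, which that alternative removes by the same genes. The Hox median of old over young became -0.39 without cycling barcodes and -0.15 with the marker limit, and the cause was not tested. With classes drawn after thinning, 47 of the 85 lower and 36 of the 92 higher genes stayed called. Of 730 alternative values of the named genes called between the classes, chosen for large ratios, 728 kept their direction. Past 1.5-fold in either direction were 714, the reversed young Nes value among them. All 142 values of the named age genes stayed past 1.5-fold in their direction. Alternatives in which a gene was no longer measured are not in these totals. With the marker limit only 6 of the 12 named higher genes were still measured in both libraries, and Saa3, Sfrp2 and Apoe were not. No replicate could be left out with 1 library per age. No paired analysis was possible because each age has 1 library. Scarce genes such as Myh11 are limited by depth.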
